A study of Homo sapiens with 21 samples.

Results

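Genes that encode negative feedback inhibitors of FGF and MAPK signalling were followed through 21 RNA-seq libraries of A673, an established Ewing sarcoma cell line. The genes were IL17RD, SPRY1, SPRY2, SPRY4, SPRED1, SPRED2, SPRED3, DUSP4, DUSP5 and DUSP6, 10 of the 57820 genes in the count table. Apart from IL17RD they were chosen by name as known feedback inhibitors, but with earlier results of these data known. IL17RD was chosen from its measured response, the interaction of tyrosine substitution with shortening of the EWS domain. For IL17RD the values in the WT-EF, mut9, DAF and DAF-mut9 groups are therefore a description with no test, and only its comparisons of iLuc and of Δ22 with iEF were tested. The spread in those tests was estimated over all 21 libraries, including those on which IL17RD was chosen. Its p-values are therefore not wholly free of that choice.

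EWS/FLI is the fusion of the disordered N-terminal part of EWS with the DNA-binding part of FLI that drives Ewing sarcoma. Each of 7 groups held 3 libraries, and in all of them cells received an shRNA and then a vector. iLuc cells received an shRNA against luciferase and an empty vector, and so retained their own EWS/FLI. iEF cells received an shRNA against EWS/FLI and an empty vector. The other 5 groups received that same shRNA and a 3xFLAG-tagged cDNA. WT-EF was wildtype EWS/FLI and Δ22 lacked the EWS domain. DAF carried tyrosine-to-alanine changes in the N-terminal repeats of that domain. In mut9 the EWS domain was shortened to its 2 ends, and in DAF-mut9 the repeat tyrosines left in mut9 were changed to alanine. The columns named mut9d in the count table were read as DAF-mut9, and all values given for DAF-mut9 rest on that reading. A673 is a single line that carries an activating BRAF mutation, and every library came from cells kept under antibiotic selection. The 3 replicates were repeats of the knockdown and rescue in this line, so p-values measure the spread between such repeats.

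FGF ligands bind receptor tyrosine kinases, which signal through RAS, RAF and MEK to the kinase ERK. ERK activity switches on genes whose products dampen the same cascade, so that their transcripts are often read as a record of pathway output. IL17RD (also called SEF) is a membrane protein that acts at the FGF receptor and on MEK and ERK. Sprouty proteins (SPRY1, SPRY2 and SPRY4) act between the receptor and RAF, and SPRED proteins (SPRED1, SPRED2 and SPRED3) bind neurofibromin and limit RAS. DUSP4, DUSP5 and DUSP6 are phosphatases that remove phosphate from MAP kinases, DUSP4 and DUSP5 in the nucleus and DUSP6 in the cytoplasm.

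The FLI part of the fusion binds the letters GGAA, singly or in repeats, so the DNA near the 5′ ends of the genes was read for GGAA. RefSeq (GRCh38.p14) gave 14 promoter windows for 8 of the 10 genes, all except DUSP4 and DUSP5. Each of the 14 windows held GGAA on 1 or both strands in the 250 bases before the start, as did 92.7% of all 35116 such windows, and none held GGAAGGAA, which 3.06% of all windows held. The count of GGAA ran from 1 in both windows of IL17RD to 6 in DUSP6, against a median of 3 for all windows. IL17RD and DUSP6 are printed as these extremes and SPRY2 as the gene with the largest response, each read 5′ to 3′ on the strand of the gene, with GGAA or its reverse complement in capitals. The windows are chr3:57165354-57165603, chr12:89352502-89352751 and chr13:80341127-80341376, all on the minus strand. Counted along the gene, the IL17RD window is number 2 of 2 and the SPRY2 window number 1 of 3. The SPRY2 window printed held 3 GGAA and each of the others held 4.
IL17RD: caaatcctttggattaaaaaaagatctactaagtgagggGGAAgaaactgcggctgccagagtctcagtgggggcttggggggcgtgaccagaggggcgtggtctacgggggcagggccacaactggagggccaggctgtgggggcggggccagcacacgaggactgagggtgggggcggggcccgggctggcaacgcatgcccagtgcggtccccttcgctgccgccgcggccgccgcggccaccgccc
DUSP6: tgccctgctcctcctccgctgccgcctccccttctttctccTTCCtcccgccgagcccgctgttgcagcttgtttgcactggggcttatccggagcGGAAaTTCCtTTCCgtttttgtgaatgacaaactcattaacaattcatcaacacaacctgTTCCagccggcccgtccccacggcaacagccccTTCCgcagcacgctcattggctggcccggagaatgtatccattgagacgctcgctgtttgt
SPRY2: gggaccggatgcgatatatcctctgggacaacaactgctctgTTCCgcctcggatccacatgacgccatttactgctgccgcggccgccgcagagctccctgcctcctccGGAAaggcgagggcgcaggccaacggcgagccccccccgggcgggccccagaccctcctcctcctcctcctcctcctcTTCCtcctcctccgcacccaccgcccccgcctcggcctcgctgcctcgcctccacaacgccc

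CGGAAG, a longer ETS motif, occurred in the DUSP6 window and in 1 of the 2 windows of SPRY1, against 16.5% of all windows. TGACTCA, the AP-1 motif, occurred in 1 of the 2 windows of SPRED3 (4.2% of all windows), and TGACGTCA, the CRE motif, in none of the 14 (1.65% of all windows). All motifs were searched on both strands, and GGAA overlaps CGGAAG.

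Runs of at least 4 GGAA repeats were then located in the GRCh37 genome, the build of the count table. DUSP4 was not analysed here. None of the 9 genes searched had a run within 5 kb of its 5′ end, where 3.67% of 19391 protein-coding genes had one. Within 100 kb, 7 had a run, SPRY1, SPRY2, SPRY4, SPRED2, SPRED3, DUSP5 and DUSP6, compared with 54.7% of protein-coding genes. The nearest run was 18.7 kb away for DUSP6 and 408 kb away for SPRED1. The runs nearest SPRY2, SPRY4, DUSP5 and IL17RD are printed on the plus strand, SPRY2 and DUSP5 for the largest changes below among the genes searched, SPRY4 for the longest run and IL17RD for the pattern on which it was chosen, with the repeats in capitals and 20 bases of flank on each side. The repeats lie at chr13:80884156-80884219 (31.0 kb downstream of the SPRY2 5′ end, 16 repeats), chr5:141771661-141771736 (65.6 kb upstream of SPRY4, 19 repeats), chr10:112293864-112293903 (36.2 kb downstream of the DUSP5 5′ end, 10 repeats) and chr3:57473018-57473033 (269 kb upstream of IL17RD, 4 repeats). All 4 lie outside the bounds of the gene they are listed with, SPRY2 (chr13:80910111-80915261), SPRY4 (chr5:141689992-141706020) and IL17RD (chr3:57124010-57204334) on the minus strand and DUSP5 (chr10:112257665-112271291) on the plus strand.
SPRY2: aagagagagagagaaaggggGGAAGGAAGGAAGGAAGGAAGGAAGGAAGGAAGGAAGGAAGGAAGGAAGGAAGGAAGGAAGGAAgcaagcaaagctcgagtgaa
SPRY4: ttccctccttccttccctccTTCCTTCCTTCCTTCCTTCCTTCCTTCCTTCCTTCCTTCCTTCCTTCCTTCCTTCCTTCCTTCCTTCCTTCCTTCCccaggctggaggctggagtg
DUSP5: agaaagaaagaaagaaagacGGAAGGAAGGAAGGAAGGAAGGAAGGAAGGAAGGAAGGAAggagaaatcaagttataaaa
IL17RD: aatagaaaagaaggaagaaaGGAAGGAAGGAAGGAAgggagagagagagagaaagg

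Libraries held 32.9 to 46.2 M gene counts, so that 1 CPM (TMM-scaled counts per M counts) stood for 32.0 to 45.2 counts. FLI1, whose counts include the fusion transcript and the cDNAs, was at 20.02 to 21.1 CPM in iEF and at 60.6 to 89.0 CPM in iLuc. Its mean was 24.5 CPM in WT-EF, 30.7 in mut9, 37.02 in DAF, 36.3 in DAF-mut9 and 49.5 in Δ22, so FLI1 was not at 1 level in the rescue groups. These counts do not separate cDNA from residual fusion transcript, so they do not measure the cDNA alone. The paper describes the shRNA as directed at the 3′UTR of the fusion, and it reports western blots of the tagged constructs. WT-EF did not pass the test for FLI1 against iEF (log2 fold change 0.24, adjusted p = 0.196) and DAF exceeded WT-EF by 0.60. The part of these unequal FLI1 levels in the results below was not tested. Of 8 Ewing sarcoma markers 7 were higher in iLuc than in iEF, and the eighth, CD99, whose copies on X and Y share their sequence, was at 0.129 CPM or less in every group mean. Against iEF, 6 of the 8 markers were higher in WT-EF, 6 in mut9 and 5 in DAF, with 0 lower. In Δ22 and in DAF-mut9, 0 were higher and 1 was lower. Of all tested genes, 41.1% were called in iLuc, 28.3% in WT-EF and 14.6% in mut9. The share was 7.42% in DAF, 2.67% in Δ22 and 3.4% in DAF-mut9.

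Levels of the 10 genes spanned a wide range. Per kilobase of exon, the mean iEF level was 155 CPM per kb for DUSP6, 84.1 for DUSP5, 41.6 for SPRY2, 22.8 for SPRED1 and 18.1 for SPRY4. It was 10.5 CPM per kb for DUSP4, 8.36 for SPRED2, 2.76 for SPRY1, 1.76 for IL17RD and 0.251 for SPRED3. SPRED3 rested on 21 to 104 counts per library and IL17RD on 65 to 1032, while each DUSP6 value rested on at least 8849. No other gene of the annotation shares exons with the 10 genes on the same strand, but 1105 exonic bases of DUSP6 are shared with a gene on the opposite strand that has no row in the count table. The strand setting of the counting is not given, so reads of that gene cannot be told apart from those of DUSP6.

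**Figure D1:**
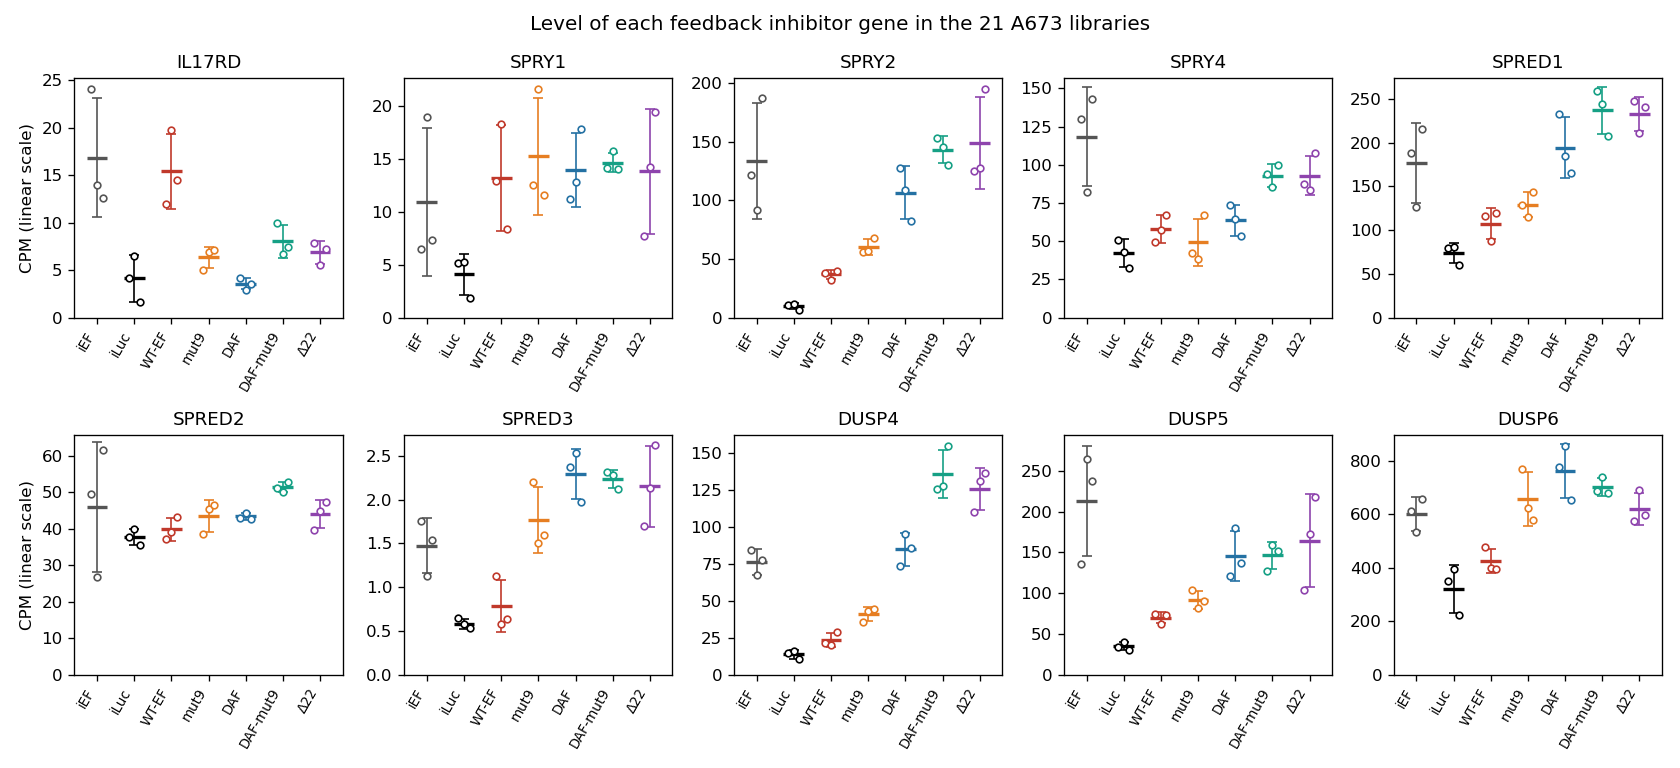
Level of each of the 10 genes in CPM (linear axis from 0, 1 panel per gene) in the 7 groups. Circles are the 3 libraries of a group, thick bars the mean and error bars the SD. Except for SPRED2, iLuc lies wholly below iEF in every panel, and in IL17RD the WT-EF libraries lie between 11.9 and 19.7 CPM while the DAF libraries lie between 2.95 and 4.15.

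The first comparison asked how the feedback genes stood in cells that retained EWS/FLI (iLuc) relative to depleted cells (iEF). Of the 9 genes other than IL17RD, 8 were lower in iLuc and none was higher, where 41.1% of all tested genes were called and 22.4% were called lower. The median log2 fold change of the 9 was −1.33, beside 0.01 for all genes. IL17RD was also lower in iLuc, and SPRED2 was the only gene of the 10 that did not pass the test. For 9 of the 10 genes every iLuc library lay below every iEF library, where 22.7% of all genes were separated in this direction and 42.3% in either.

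SPRY2 showed the largest difference. It stood at 121, 91.7 and 188 CPM in the iEF libraries of sets 1, 2 and 3 and at 10.9, 11.2 and 6.56 CPM in those of iLuc. The fall was 13.6-fold (log2 fold change −3.77 ± 0.26 SE, adjusted p = 2.22e-10), and it was −3.46, −3.02 and −4.83 within sets 1, 2 and 3. SPRY4, the other strongly expressed Sprouty gene, stood at 130, 82.1 and 143 CPM in iEF and at 50.9, 42.9 and 32.6 CPM in iLuc, 2.75-fold lower (−1.46 ± 0.20, adjusted p = 4.96e-06). SPRY1 stood at 6.49, 19.0 and 7.32 CPM in iEF and at 5.14, 5.28 and 1.83 CPM in iLuc, 2.52-fold lower (−1.33 ± 0.37, adjusted p = 0.00634). The iEF library of set 2 carries much of the SPRY1 difference, since without it the log2 fold change was −0.90 with an adjusted p of 0.0689.

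IL17RD, the receptor-level inhibitor, stood at 24.1, 13.9 and 12.6 CPM in iEF and at 4.21, 6.52 and 1.63 CPM in iLuc. It was 4.12-fold lower in iLuc (−2.04 ± 0.34, adjusted p = 4.39e-05). Among the SPRED genes, SPRED1 fell from 188, 126 and 216 CPM in iEF to 79.1, 81.1 and 60.3 CPM in iLuc (−1.25 ± 0.16, adjusted p = 2.49e-06). SPRED3 fell from 1.75, 1.13 and 1.54 CPM to 0.642, 0.575 and 0.526 CPM (−1.33 ± 0.27, adjusted p = 0.000357). The iLuc libraries of both genes lay below all iEF libraries. SPRED2 stood at 49.6, 26.7 and 61.7 CPM in iEF and at 37.8, 39.8 and 35.4 CPM in iLuc, so that the groups overlapped, and its difference was −0.27 (95% interval −0.63 to 0.10, adjusted p = 0.25).

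The phosphatases were lower in iLuc as well. DUSP5, a nuclear ERK phosphatase, stood at 136, 265 and 238 CPM in iEF and at 34.3, 39.6 and 30.2 CPM in iLuc, 6.01-fold lower (−2.59 ± 0.22, adjusted p = 5.89e-09). DUSP4 stood at 84.3, 67.0 and 77.1 CPM in iEF and at 14.6, 16.1 and 10.2 CPM in iLuc, 5.58-fold lower (−2.48 ± 0.17, adjusted p = 2.99e-10). DUSP6, the gene with the highest level per kb, stood at 610, 532 and 658 CPM in iEF and at 348, 394 and 222 CPM in iLuc. Its difference of 1.9-fold (−0.93 ± 0.15, adjusted p = 3.82e-05) was the smallest of the 9 genes that passed.

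The second comparison asked whether wildtype EWS/FLI put back into depleted cells lowered the same genes. In WT-EF, 7 of the 9 genes were lower than in iEF and none was higher, where 28.3% of all tested genes were called and 16.9% were called lower. SPRY2 stood at 38.3, 32.1 and 39.9 CPM in WT-EF, 3.6-fold below iEF (−1.85 ± 0.23, adjusted p = 3.65e-06). DUSP4 stood at 21.5, 19.7 and 28.9 CPM (−1.72 ± 0.17, adjusted p = 1.26e-07) and DUSP5 at 74.3, 62.3 and 72.6 CPM (−1.57 ± 0.21, adjusted p = 8.43e-06). SPRY4 (−1.01), SPRED3 (−0.92), SPRED1 (−0.72) and DUSP6 (−0.51) fell less, with adjusted p-values of 0.000515, 0.0101, 0.00183 and 0.0137. Every WT-EF library lay below every iEF library for 6 of the 10 genes (19.9% of all genes lay lower in this way), SPRED3 being the called gene whose groups met, with a library at 1.13 CPM in each.

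SPRY1 and SPRED2 did not pass in WT-EF. SPRY1 stood at 12.9, 18.3 and 8.38 CPM, 0.34 above iEF on the log2 scale (95% interval −0.40 to 1.08), and SPRED2 differed by −0.19 (−0.56 to 0.17). IL17RD stood at 11.9, 19.7 and 14.5 CPM in WT-EF, within the range of its iEF libraries at the top and just below it at the bottom, and its fitted difference was −0.11 ± 0.32. The SPRED3 call was lost without the WT-EF library of set 2 or of set 3 (adjusted p = 0.0693 and 0.0625). The DUSP6 call was lost without the iEF library of set 3 or the WT-EF library of set 2 (adjusted p = 0.125 and 0.0955).

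Set directly against iLuc, WT-EF cells had higher levels of 5 of the 9 genes and lower levels of none, where 18.3% of all tested genes were called and 9.78% were called higher. SPRY2 was 3.79-fold higher, SPRY1 3.19-fold, DUSP5 2.02-fold, DUSP4 1.7-fold and SPRED1 1.44-fold, with adjusted p-values of 7.25e-06, 0.00272, 0.00159, 0.00249 and 0.0249. SPRY4, SPRED2, SPRED3 and DUSP6 did not pass (0.44, 0.07, 0.41 and 0.42 on the log2 scale). The SPRED1 call was lost without 1 of 4 libraries, those of iLuc in sets 1 and 3 (adjusted p = 0.0701 and 0.123) and those of WT-EF in the same sets (0.0625 and 0.11).

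**Figure D2:**
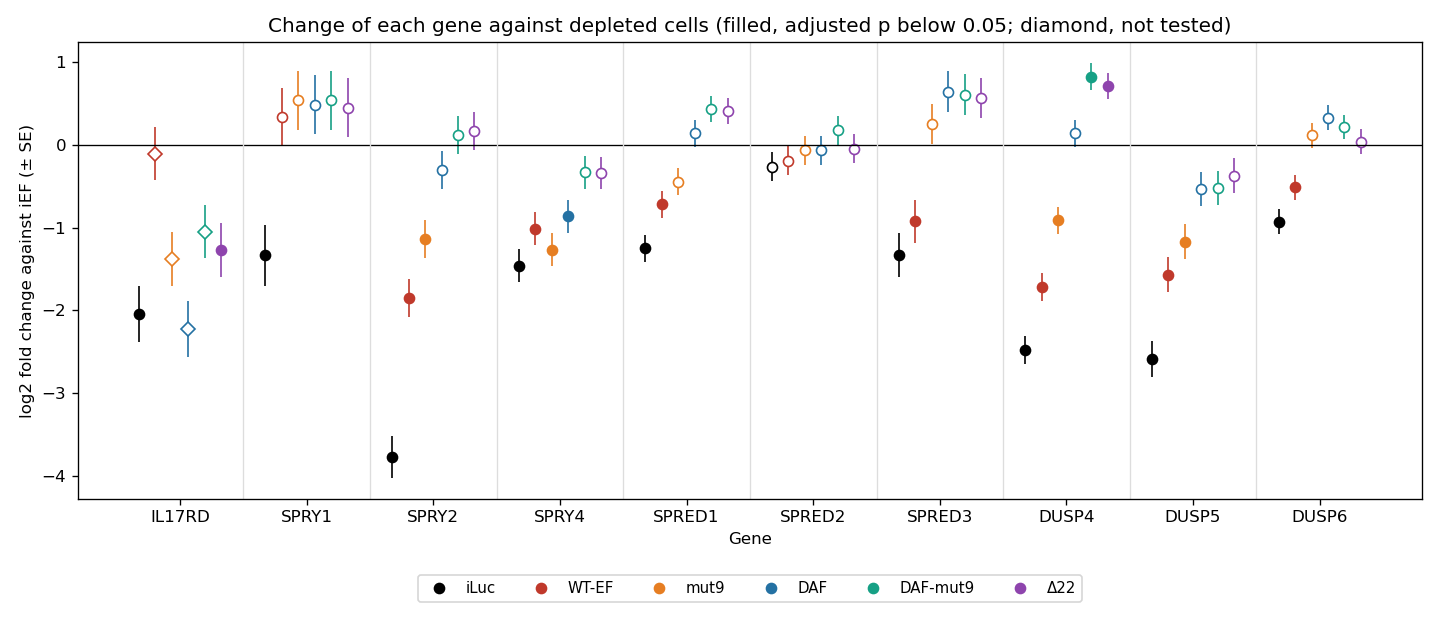
Log2 fold change of each of the 10 genes against iEF for the 6 other groups, with error bars of 1 SE. Filled circles had an adjusted p below 0.05, open circles did not, and diamonds mark the IL17RD values that were not tested. SPRY2, DUSP4 and DUSP5 run in steps from iLuc at the bottom through WT-EF and mut9 to the remaining groups, while IL17RD has WT-EF near 0 and DAF at −2.22.

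Δ22, the cDNA with no EWS domain, served as the control for the DNA-binding part alone. Of the 9 genes 1 differed from iEF, where 2.67% of all tested genes were called and 0.881% were called higher. That gene was DUSP4, at 110, 131 and 136 CPM in Δ22, above every iEF library and 1.64-fold higher (0.71 ± 0.16, adjusted p = 0.0204). IL17RD moved the other way, to 7.87, 5.50 and 7.27 CPM in Δ22, below every iEF library and 2.41-fold lower (−1.27 ± 0.33, adjusted p = 0.0398). Neither call was stable. The DUSP4 call was lost without the library of set 2 or 3 of either group, with adjusted p-values of 0.0802 and 0.107 for iEF and of 0.0771 and 0.115 for Δ22. The IL17RD call was lost with no replicate block (adjusted p = 0.0503), without the iEF library of set 1 or 3 (0.17 and 0.0696) and without any 1 of the 3 Δ22 libraries (0.107 to 0.185).

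The remaining 8 genes differed from iEF in Δ22 by −0.37 (DUSP5) to 0.57 (SPRED3) on the log2 scale. Of these, SPRED1 at 0.41 and SPRED3 at 0.57 had 95% intervals that lay above 0 (0.07 to 0.74 and 0.06 to 1.08), but adjusted p-values of 0.224 and 0.277. Against Δ22, WT-EF had 7 of the 9 genes lower and none higher, where 25.2% of all tested genes were called and 14.5% were called lower. DUSP4 was 5.38-fold lower, SPRY2 4.04-fold, SPRED3 2.81-fold, DUSP5 2.29-fold and SPRED1 2.18-fold, and the log2 fold changes of SPRY4 and DUSP6 were −0.68 and −0.55. The SPRY4 call was lost without the WT-EF library of set 1 (adjusted p = 0.105) or the Δ22 library of set 3 (0.0605), and the DUSP6 call without the WT-EF library of set 2 (0.0787).

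In mut9, the shortened EWS domain, 4 of the 9 genes were lower than in iEF and none was higher, where 14.6% of all tested genes were called and 8.33% were called lower. These were SPRY4, DUSP5, SPRY2 and DUSP4. SPRY4 stood at 42.0, 38.5 and 67.1 CPM (−1.27 ± 0.20, adjusted p = 0.000126), DUSP5 at 103, 81.4 and 90.1 CPM (−1.17 ± 0.21, adjusted p = 0.000523), SPRY2 at 55.9, 56.8 and 67.7 CPM (−1.14 ± 0.23, adjusted p = 0.00152) and DUSP4 at 35.2, 43.1 and 44.2 CPM (−0.91 ± 0.16, adjusted p = 0.000513). For each of these genes every mut9 library lay below every iEF library, as for 12.9% of all genes. DUSP6 stood at 769, 622 and 579 CPM, overlapping iEF (0.12, 95% interval −0.20 to 0.43), and SPRED1 differed by −0.44 (−0.78 to −0.11, adjusted p = 0.0712).

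Compared directly, mut9 had higher levels than WT-EF of SPRED3 (2.26-fold, adjusted p = 0.00663), DUSP4 (1.75-fold, adjusted p = 0.00414) and DUSP6 (1.54-fold, adjusted p = 0.0136), 3 of the 9 genes, where 6.15% of all tested genes were called and 4.95% were called higher. SPRY2 was 1.64-fold higher with an adjusted p of 0.0723. The count fell to 0 without the WT-EF library of set 2. With only these 2 groups in the fit it was 7, where 5116 of 30842 genes were called. Without the WT-EF library of set 3 or the mut9 library of set 1 only 1 call was left. Against Δ22, mut9 had 5 of the 9 genes lower (9.17% of all tested genes were called, 4.64% lower). DUSP4 was lower 3.07-fold, SPRY2 2.47-fold, SPRY4 1.91-fold, SPRED1 1.81-fold and DUSP5 1.74-fold. DUSP5 stood at 103 CPM in both groups in set 1, and its call was lost without the mut9 library of set 2 or 3 or the Δ22 library of set 3 (adjusted p = 0.138, 0.0845 and 0.162).

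In DAF, only SPRY4 of the 9 genes passed the test against iEF, where 7.42% of all tested genes were called and 4.02% were called lower. By unadjusted p below 0.05, 4 of the 9 differed, and the share of all genes at that threshold was not counted. SPRY4 stood at 73.6, 64.3 and 53.4 CPM in DAF, below every iEF library and 1.82-fold lower (−0.86 ± 0.20, adjusted p = 0.00905). The call was lost without the library of set 3 of iEF or of DAF (adjusted p = 0.0561 and 0.0776). SPRY2 stood at 127, 109 and 82.4 CPM, inside or just below the iEF range (−0.31, 95% interval −0.78 to 0.17), and DUSP4 at 73.2, 94.8 and 85.7 CPM (0.14, −0.19 to 0.48). SPRED3 and DUSP6 were 0.65 (0.14 to 1.15) and 0.33 (0.02 to 0.64) above iEF, with adjusted p-values of 0.129 and 0.231. DUSP5 differed by −0.53 (−0.96 to −0.10, adjusted p = 0.145). The intervals of SPRED3, DUSP6 and DUSP5 excluded 0. IL17RD stood at 4.15, 2.95 and 3.56 CPM, the lowest mean of its 7 groups, at a fitted difference from iEF of −2.22 ± 0.34.

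Between DAF and Δ22 none of the 9 genes differed in the edgeR fit to all groups, where 0.972% of all tested genes were called. By unadjusted p below 0.05, 2 of the 9 differed in edgeR, and the share of all genes at that threshold was not counted. At adjusted p below 0.05, DESeq2, and limma on the authors' adjusted counts, called 0. An edgeR fit with no low-count filter called 3, where 906 of 48035 genes were called. One with only these groups called 2, where 682 of 30102 genes were called. The largest difference was in DUSP4, −0.57 (95% interval −0.91 to −0.23, adjusted p = 0.137), with every DAF library below every Δ22 library.

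In DAF-mut9, 1 of the 9 genes differed from iEF, where 3.4% of all tested genes were called and 1.26% were called higher. DUSP4 stood at 125, 128 and 155 CPM, above every iEF library and 1.77-fold higher (0.83 ± 0.16, adjusted p = 0.00666), a call that kept its side of the threshold without any 1 of these libraries. SPRED3 and DUSP6 also lay wholly above iEF (17.4% of all genes were separated in either direction), at 2.12 to 2.31 CPM and 679 to 739 CPM, with differences of 0.61 and 0.22 and adjusted p-values of 0.219 and 0.563. The other differences of the 9 ran from −0.52 (DUSP5) to 0.54 (SPRY1).

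The design then allows the effect of the tyrosine substitutions to be read in both lengths of the EWS domain, with the reservation that DAF and DAF-mut9 do not change an identical set of tyrosines. In the full-length domain, DAF had higher levels than WT-EF of 6 of the 9 genes and lower levels of none, where 24.9% of all tested genes were called and 14.3% were called higher. DUSP4 was 3.63-fold higher (1.86 ± 0.17, adjusted p = 8.8e-08), SPRED3 2.97-fold (1.57 ± 0.26, adjusted p = 9.13e-05) and SPRY2 2.91-fold (1.54 ± 0.23, adjusted p = 3.94e-05). DUSP5 was 2.05-fold, SPRED1 1.81-fold and DUSP6 1.79-fold higher, with adjusted p-values of 0.000836, 0.000413 and 0.000261. Every DAF library lay above every WT-EF library for these 6 genes (40.5% of all genes were separated in either direction). SPRY1, SPRY4 and SPRED2 did not pass, at 0.15, 0.15 and 0.13. The count stayed at 6 without any 1 library of the groups.

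In the shortened domain, DAF-mut9 had higher levels than mut9 of 4 of the 9 genes and lower levels of none, where 9.83% of all tested genes were called and 5.15% were called higher. DUSP4 was 3.33-fold higher (1.73 ± 0.17, adjusted p = 4.61e-07) and SPRY2 2.39-fold (1.26 ± 0.23, adjusted p = 0.000851). SPRY4 was 1.91-fold higher, at 94.1, 85.2 and 99.6 CPM in DAF-mut9 (0.94 ± 0.20, adjusted p = 0.00334), and SPRED1 1.84-fold, at 259, 244 and 207 CPM (0.88 ± 0.16, adjusted p = 0.000849). DUSP5 was 1.57-fold higher with an adjusted p of 0.0544. DUSP6 differed by 0.10 (95% interval −0.21 to 0.41) and SPRED3 by 0.35 (−0.15 to 0.85).

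**Figure D3:**
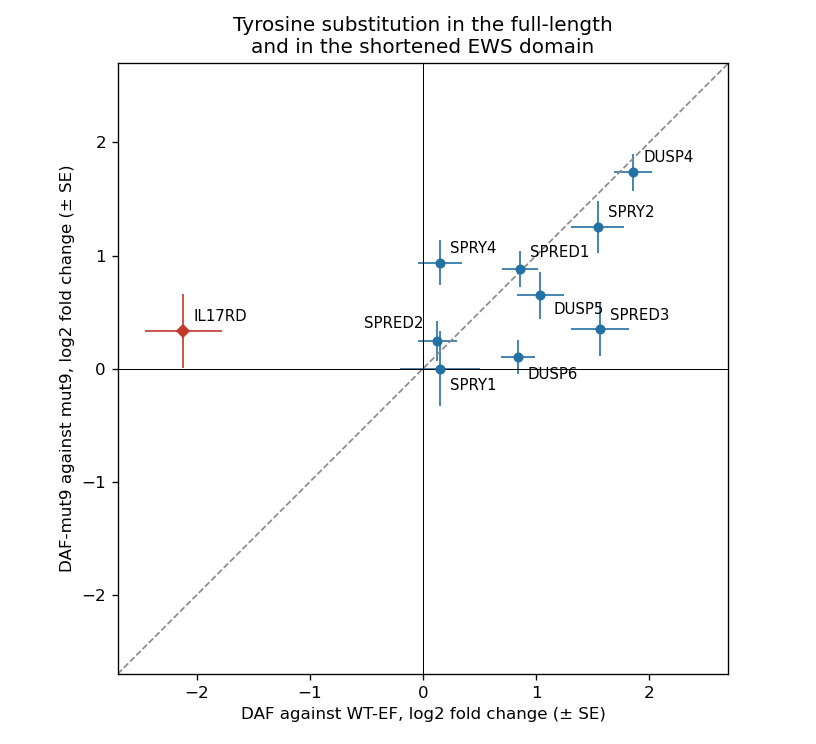
Log2 fold change of each gene with tyrosine substitution in the full-length EWS domain (DAF against WT-EF, horizontal axis) and in the shortened one (DAF-mut9 against mut9, vertical axis), with error bars of 1 SE and a dashed line of equal change. DUSP4, SPRY2 and SPRED1 lie near the line at the upper right, and IL17RD, the gene chosen for this contrast, lies alone at −2.12 and 0.33.

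The difference between the 2 effects was tested for the 9 genes as an interaction. None passed in the edgeR fit to all groups, where 3.33% of all tested genes were called. An unadjusted p below 0.05 was found for 3, and the share of all genes at that threshold was not counted. DESeq2 called 2, where it called 1613 of 30549 genes, and limma on the authors' adjusted counts called 0. An edgeR fit with no low-count filter and one with only these groups each called 2. Over all genes these fits called 2007 of 48035 and 2408 of 30350. SPRED3 had an interaction of −1.21 (95% interval −1.94 to −0.49, adjusted p = 0.0615) and was negative in 3 of 3 sets, at −0.97, −1.44 and −1.15. DUSP6 had an interaction of −0.74 (−1.18 to −0.30, adjusted p = 0.0616), at −0.87, −0.85 and −0.49 within the sets. SPRY4 went the other way, at 0.78 (0.20 to 1.37, adjusted p = 0.154). For DUSP4 the interaction was −0.12 (−0.60 to 0.36), for SPRY2 −0.29 (−0.96 to 0.38) and for SPRED1 0.02 (−0.45 to 0.49), so in SPRED1 a difference larger than 0.49 between the effects lay outside the interval.

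IL17RD had the pattern for which it was chosen. It was at 15.4 ± 3.97 CPM in WT-EF and at 3.56 ± 0.597 in DAF (SD, n = 3), a fitted fall of 4.34-fold, with no overlap between the libraries. It was at 6.33 ± 1.14 CPM in mut9 and at 8.06 ± 1.74 in DAF-mut9, a difference of 0.33 ± 0.33 with overlapping libraries. The interaction came to 2.45 ± 0.47, and within sets 1, 2 and 3 it was 2.50, 2.68 and 2.09. DAF against WT-EF was −1.51, −2.72 and −2.01 within the sets.

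The order of the 7 groups is given as a description, since for IL17RD 4 of the 7 means belong to the groups on which it was chosen. Its means ran from iEF (16.9 CPM) and WT-EF (15.4) through DAF-mut9 (8.06), Δ22 (6.88) and mut9 (6.33) to iLuc (4.12) and DAF (3.56). Of neighbours in this order, only WT-EF and DAF-mut9 had libraries that did not overlap. For SPRY2, DUSP4 and DUSP5 the lowest 3 groups were iLuc, WT-EF and mut9, in that order and with no overlap between neighbours among them. Of all genes, 27.9% were separated in either direction between WT-EF and iLuc, and 25% between mut9 and WT-EF. SPRED1 had the same 3 lowest groups in the same order, but its WT-EF and mut9 libraries overlapped. DUSP6 and SPRED3 also had iLuc and WT-EF as their lowest groups, which overlapped each other in SPRED3. Their mut9 means were above iEF (656 against 600 CPM for DUSP6 and 1.76 against 1.47 CPM for SPRED3). The mut9 and iEF libraries overlapped in both genes and neither passed the test (SPRED3 0.26, 95% interval −0.25 to 0.77, adjusted p = 0.581). SPRY4 had mut9, at 49.2 ± 15.6 CPM, between iLuc and WT-EF, with all 3 overlapping their neighbours. SPRY1 was set apart from the rest of the order only in iLuc, at 4.08 ± 1.95 CPM against means of 10.9 to 15.2 CPM in the other 6 groups.

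Genes that followed each member most closely were listed by the root mean square of the difference between centred log2 levels over the 7 group means, among 10779 genes at 5 CPM or more. For IL17RD the nearest were TNFRSF21 (0.46), DHRS2 (0.48) and AADAT (0.50), where the median over all genes was 0.85. Because 4 of the 7 means were used to choose IL17RD, its distances follow in part from that choice. For the other members the distance to the nearest gene ran from 0.05 (STX2 for SPRED2) to 0.17 (GLIPR1 for DUSP4). SLC35E4 was nearest SPRY2 (0.11), TNFRSF12A nearest DUSP5 (0.06), KIAA0930 nearest DUSP6 (0.06) and LRRFIP2 nearest SPRED1 (0.07). Within the 10 genes, SPRY2 and DUSP4 were each other's nearest at 0.40, SPRED1 and SPRED3 at 0.28, and the gene nearest IL17RD was SPRY4 at 0.68. The values describe 7 means that share their libraries, and no test was made.

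The rest of the pathway was read from 5 lists, first for iLuc against iEF, where 41.1% of all tested genes were called and 22.4% were called lower. Of the 13 tested genes among 14 other inhibitors, 7 were lower and 1 was higher in iLuc, with a median log2 fold change of −0.63. DUSP10, a phosphatase of the stress kinases JNK and p38, fell by 5.86, and ERRFI1, an inhibitor of the EGF receptor family, fell by 2.83 on the log2 scale. DUSP1 and DUSP7, further MAP kinase phosphatases, also fell (−1.34 and −1.07). Of 15 ERK output genes, 6 were lower and 2 were higher (median −0.35). PHLDA1 (−5.54), IER3 (−4.89), FOSL1 (−4.34), which encodes an AP-1 subunit, and EPHA2 (−1.49), a receptor tyrosine kinase, all fell. The ETS genes ETV4 and ETV5, which are induced by FGF in many tissues, were at −0.56 (adjusted p = 0.0394) and −0.35 (adjusted p = 0.172), and ETV1 was higher in iLuc by 0.85.

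Of 16 tested FGF ligands among 22, 6 were lower in iLuc and 4 were higher (median 0.14). FGF1 and FGF2 fell (−3.43 and −1.25), while the intracellular family members FGF13 and FGF14 rose by 1.53 and 0.97. Of 9 receptor genes 3 were lower and 3 were higher (median −0.03). FGFR1 stood at 254, 237 and 269 CPM in iEF and at 77.5, 98.6 and 91.2 CPM in iLuc, a fall of 1.51 on the log2 scale, and FGFRL1 and the adaptor FRS2 fell as well (−0.87 and −0.40). Of 17 genes of the RAS to ERK cascade 7 were lower and 2 were higher (median −0.15). The adaptor SHC1 and MAP2K1 (MEK1) fell (−1.04 and −0.87), while MAPK3 (ERK1) rose by 0.67.

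**Figure D4:**
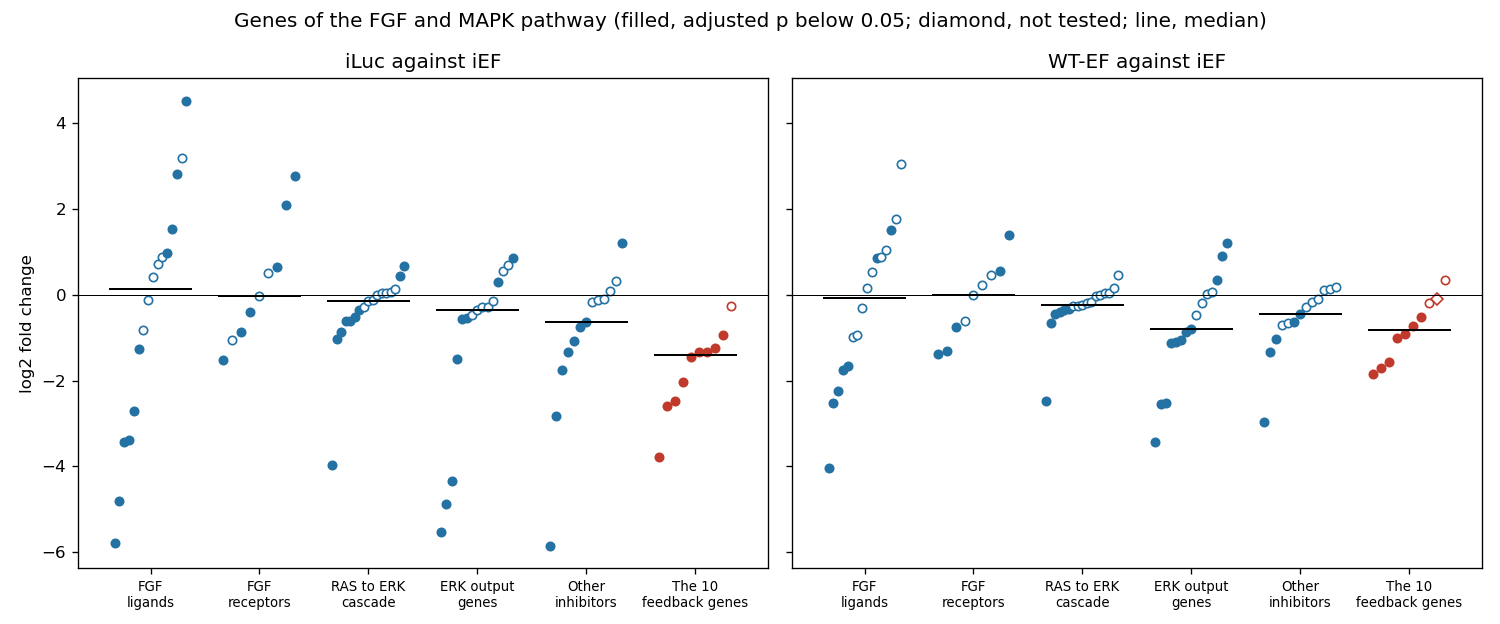
Log2 fold change of the tested genes of 5 pathway lists and of the 10 feedback genes, for iLuc against iEF (left) and WT-EF against iEF (right), ordered within each list. Filled symbols had an adjusted p below 0.05, the diamond is IL17RD where it was not tested, and horizontal lines are medians. Most of the 10 feedback genes lie below 0 in both panels, while the FGF ligands spread from below −4 to above 3.

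In WT-EF against iEF, where 28.3% of all tested genes were called and 16.9% were called lower, the same lists gave 5 lower and none higher of 13 for the other inhibitors, 8 lower and 3 higher of 15 for the ERK output genes, 5 and 2 of 16 for the ligands, 3 and 2 of 9 for the receptors and 6 and none of 17 for the cascade. DUSP10 (−2.96), ERRFI1 (−1.34), PHLDA1 (−2.52), IER3 (−3.44) and FOSL1 (−2.54) fell on the log2 scale, as did FGF1 (−1.65), FGF2 (−2.25) and FGFR1 (−0.76). In DAF against iEF, where 4.02% of all tested genes were called lower, 4 of 15 ERK output genes were lower and none was higher. Against iEF, 3 of the 15 were lower in Δ22 and 2 in DAF-mut9, with none higher. In these comparisons 2.67% and 3.4% of all tested genes were called. For mut9 against iEF, 7 of the 15 were lower and 3 were higher, where 14.6% of all tested genes were called and 8.33% were called lower. PHLDA1 was at −0.62 in DAF, where it did not pass (adjusted p = 0.183), and at −1.49 in mut9, where it passed the test. Its CPM ran from 894 to 1016 in DAF against 1299 to 1745 in iEF, and 10.4% of all genes were separated in this direction.

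For the tyrosine substitutions, DAF against WT-EF gave 4 higher and none lower of the 13 other inhibitors. It gave 7 higher and none lower of the 17 cascade genes. The other lists went both ways, with 5 higher and 1 lower of 16 ligands, 2 and 3 of 9 receptors and 4 and 3 of 15 ERK output genes. Over all tested genes 24.9% were called and 14.3% were called higher. DAF-mut9 against mut9 gave 1 higher and none lower in each of the inhibitor and cascade lists. It gave 1 and 1 of the ligands, 2 and 2 of the receptors and 3 and 2 of the ERK output genes. Over all tested genes 9.83% were called and 5.15% were called higher. FGFR1 had means of 89.1 CPM in iLuc, 149.6 in WT-EF, 194 in mut9, 258 in DAF and 253 in iEF. The comparisons with iEF share its 3 libraries, so their values are not independent of each other.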

How the data were processed

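RNA-seq libraries of A673 cells, 21 in 7 groups of 3, were analysed from the deposited files. Cells received the shRNA on day 1 (puromycin, 2 µg/ml), then the cDNA on day 5 (hygromycin, 400 µg/ml), with selection to day 16. The authors aligned reads with STAR (version 2.5.1b in the submitters' processing notes) to hg19 and deposited a raw count per Ensembl gene made with HTSeq. Which annotation release and strand setting were used is not given in the sources used here. The authors also deposited counts adjusted for replicate set with ComBat, a signal not scaled for library size, which served as an alternative only. A table of the authors' own log2 fold changes and p-values was not used, and the 5 HTSeq summary lines were empty.

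The 30549 genes whose mean count was 1 or more were fitted in R 4.3.3 with edgeR 4.0.16 (TMM, quasi-likelihood), with group and replicate set as terms over all 21 libraries, and called at a Benjamini-Hochberg adjusted p below 0.05. The replicate set was a block because the study's methods treat it as a batch. Residuals of 42 of 63 pairs of libraries of 1 set correlated above 0.1 (median 0.16, range −0.13 to 0.54). Replicate libraries differed beyond counting noise. Levels are CPM with SD, errors of log2 fold changes are SE, and intervals are 95%. The members and lists were chosen with earlier results of these data known. List genes are named where called in iLuc against iEF with a mean of at least 5 CPM, at most the 4 with the largest change per list; ETV1, ETV4 and ETV5 were named after their values were seen. One gene that this rule names is not reported here. Symbols came from GENCODE for 55538 of 57820 identifiers. Scripts were tested on simulated counts. Alternatives were no block, DESeq2 1.42.0, RLE normalization, 2 other filters, limma 3.58.1 on the adjusted counts with a pseudocount of 1, only the compared groups, and each library left out.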

Additional observations from a re-analysis of the deposited data

How the results depend on the processing

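Over 14 comparisons, 167 of 188 recomputed counts of called members stayed within 1.5 times the value reported and 21 did not. Of 702 recomputed values of single called members none changed sign and 34 lost the call. With no low-count filter the counts were 3 for Δ22 against iEF, 2 for DAF against iEF, 3 for DAF-mut9 against iEF, 3 for DAF against Δ22 and 2 for the interaction. With only the compared groups they were 2 for DAF against Δ22, 7 for mut9 against WT-EF and 2 for the interaction, which was also 2 by DESeq2. With each library left out in turn, the count ran from 0 to 1 for Δ22 against iEF, 0 to 2 for DAF against iEF, 0 to 3 for mut9 against WT-EF and 0 to 1 for the interaction. The cause of these shifts was not tested. Without the replicate block the counts were as reported in all 14 comparisons (8 for iLuc against iEF, 7 for WT-EF against iEF), and of the single calls only IL17RD in Δ22 against iEF was lost.

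Counts over all genes moved by more than 1.5 times in several settings. Δ22 against iEF went from 817 to 508 with no block and 2144 with no filter, and DAF-mut9 against iEF from 1038 to 684 and 2243. DAF against Δ22 went from 297 to 178, 475 by DESeq2, 682 with only the compared groups and 906 with no filter. The interaction went from 1017 to 1613 by DESeq2, 2007 with no filter and 2408 with only the compared groups. With only the compared groups, DAF against iEF went from 2268 to 1510, mut9 against WT-EF from 1878 to 5116 and DAF-mut9 against mut9 from 3003 to 4848. Depth limits SPRED3 most.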
